A study of Mus musculus with 7 samples.

Results

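The genes described here are 8 that are best known from tissues other than lymphocytes: Myl1, Tnni1 and Actn2 from muscle, Nrgn, Kcnc1 and Tubb2b from neurons, Trpm1 from melanocytes and the retina, and Krt18 from epithelium. They were taken by name from the 27514 genes that all 7 libraries share, and they were chosen by their measured levels in these same libraries: earlier results had shown them in subsets of naive DNT cells, T cells without CD4 and CD8. Their levels in naive DNT against the other groups, and their levels by cluster, are therefore given as a description: no p is printed for them, and where they are counted in a fit across all genes nothing is read from the count.

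Sarcomeres shorten when myosin, whose neck carries light chains such as that of Myl1, pulls on actin, while troponin, with the inhibitory subunit of Tnni1, sets when it may do so and alpha-actinin, as made by Actn2, anchors the filaments at the Z-disc. Neurogranin (Nrgn) binds calmodulin in dendritic spines, the Kv3.1 channel (Kcnc1) lets fast-spiking neurons repolarise, TRPM1 is a cation channel that retinal ON bipolar cells need for their light response, keratin 18 (Krt18) forms filaments of simple epithelia together with keratin 8, and Tubb2b is a beta tubulin of the developing brain. DNT cells are a rare peripheral population of T cells with an alpha-beta receptor, in which distinct subsets have been described.

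All cells came from spleens of 8-week-old male C57BL/6 mice and were sorted as CD3+ NK1.1- cells with the TCR alpha-beta and without the TCR gamma-delta. Naive DNT cells lacked CD4, CD8 and binding of the alpha-Gal-CD1d and LPC-CD1d reagents (2 libraries, naive DNT 1 and 2). Activated DNT cells were naive DNT cells kept for 3 days in vitro with antibody against CD3 and CD28 and with 20 ng/ml IL-2 (2 libraries), so culture and stimulation cannot be told apart in them. CD4 cells, CD8 cells and the whole TCRab population, sorted without a choice by CD4 or CD8, gave 1 library each. Naive DNT 2 and activated DNT 2 were made with version 3 of the 10x Chromium 3′ kit and the other 5 libraries with version 2, so the replicate number and the kit coincide. The labels do not say how many mice were pooled.

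The libraries held 1549 to 6728 kept cells (28101 in all), 17358231 to 53653855 unique molecular identifiers (UMIs, each standing for 1 captured RNA molecule) and a median of 3987 to 15795 UMIs per cell. Levels are given as CPM, the UMIs of a gene scaled to an equal library total, with 95% Poisson intervals in the plot of levels that cover counting error only. Activated DNT cells were the deepest, so shares of cells with a UMI are compared after each cell was thinned to 1500 UMIs. Any 2 libraries shared at most 36 cell barcodes. The naive libraries differed in their make-up, with 0.494% and 17.8% of cells in cluster 3 of the clusters described further on. Single libraries of CD4, CD8 and TCRab have no replicate check.

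The 8 genes lie on 5 chromosomes of GRCm38. In the GENCODE annotation they span chr1:66924295-66945404 (Myl1, minus strand), chr1:135779434-135810989 (Tnni1, plus strand), chr9:37544492-37552904 (Nrgn, minus), chr7:64153835-64269775 (Trpm1, plus), chr13:12269426-12340760 (Actn2, minus), chr7:46396497-46438704 (Kcnc1, plus), chr15:102028180-102032027 (Krt18, plus) and chr13:34126748-34130466 (Tubb2b, minus). All are protein coding, and Trpm1 is the only one that other annotated genes overlap, among them Mir211, a microRNA that 3′ libraries of polyadenylated RNA do not measure. Tubb2b has a close paralog, Tubb2a, on the same chromosome, and the part of reads that fit both was not tested, so its level is less certain than the others.

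Promoters of 3 genes are shown because each stands for one of the 3 groups of cells described further on. RefSeq (GRCm38.p6) gave a promoter, 250 bases before to 50 bases after the start, for 7 of the 8 genes, all but Tubb2b. Capitals mark matches, on either strand, to the E-box CANNTG that MyoD and other basic helix-loop-helix factors bind, to the T-box core GGTGTGA and to AGGTCA, a core sequence that many nuclear receptors bind; no 2 matches overlap in these 3 sequences.
Myl1 (chr1:66945007-66945306, minus strand): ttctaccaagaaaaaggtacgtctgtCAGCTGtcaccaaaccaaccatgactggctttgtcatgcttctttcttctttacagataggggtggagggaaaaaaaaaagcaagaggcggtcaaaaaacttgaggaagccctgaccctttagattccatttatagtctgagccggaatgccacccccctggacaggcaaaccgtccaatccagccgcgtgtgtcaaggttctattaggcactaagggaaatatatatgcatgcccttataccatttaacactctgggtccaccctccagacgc
Actn2 (chr13:12340683-12340982, minus strand): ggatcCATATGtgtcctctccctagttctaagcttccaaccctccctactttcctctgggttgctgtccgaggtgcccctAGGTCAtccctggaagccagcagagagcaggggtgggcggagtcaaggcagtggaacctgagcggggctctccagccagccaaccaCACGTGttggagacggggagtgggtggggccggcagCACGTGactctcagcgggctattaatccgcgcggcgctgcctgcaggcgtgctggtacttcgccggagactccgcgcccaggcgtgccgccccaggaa
Kcnc1 (chr7:46396218-46396517, plus strand): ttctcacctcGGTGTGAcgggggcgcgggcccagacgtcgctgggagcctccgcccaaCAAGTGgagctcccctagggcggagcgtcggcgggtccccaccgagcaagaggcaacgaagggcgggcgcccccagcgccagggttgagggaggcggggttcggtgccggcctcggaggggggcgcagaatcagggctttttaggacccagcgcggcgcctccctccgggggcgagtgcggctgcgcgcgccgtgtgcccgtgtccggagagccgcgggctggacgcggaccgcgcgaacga

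An E-box stood in each of the 9 promoter entries of these 7 genes, but also in 72.3% of 32851 promoters of the same length. The T-box core was found in 1 entry, that of Kcnc1, against 3.98% of all promoters. AGGTCA was found in 3 entries, those of Actn2, Krt18 and a start of Trpm1, against 16.3% of all promoters. The MEF2 motif was in none of the 9 entries and in 0.557% of all promoters. These matches describe letters and not binding.

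The working description of the set, muscle and neuron genes of naive DNT cells, held for some members and not for others. Both naive libraries lay above all 5 other libraries for Myl1, Trpm1, Kcnc1, Krt18 and Tubb2b. For all of these but Trpm1 the counting intervals were apart as well. The share of all genes with this order was not counted. Since the 8 genes were chosen by such levels, the order only describes them. Nrgn was highest in activated DNT cells, Actn2 in CD8 cells and Tnni1 in activated DNT 1.

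**Figure D1:**
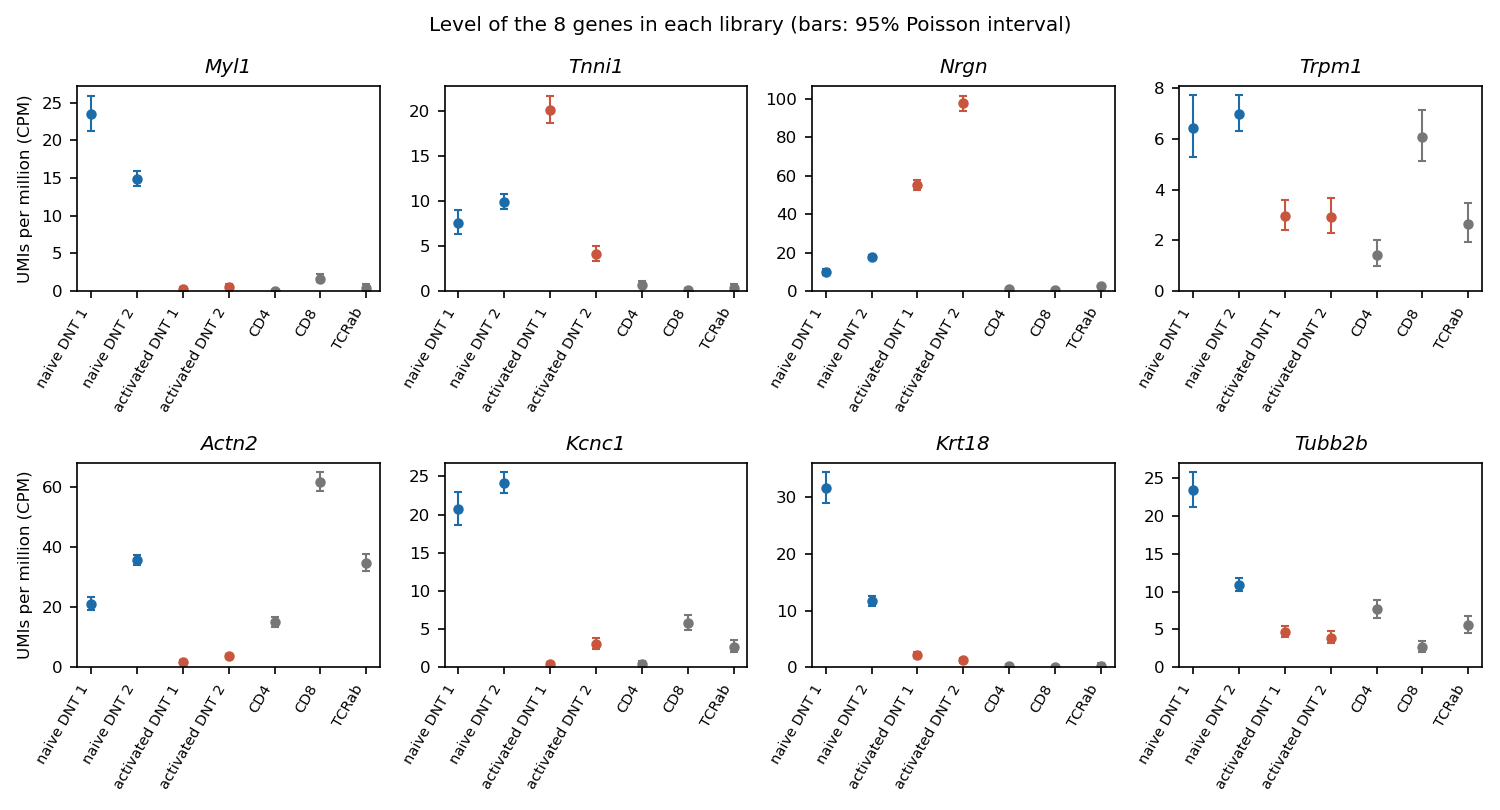
Each panel plots 1 gene, with the level in CPM on the y axis and the 7 libraries on the x axis; points are libraries (naive blue, activated red, others grey) and bars are 95% Poisson intervals. Myl1, Kcnc1, Krt18 and Tubb2b are highest in the naive libraries, while Nrgn peaks at 97.8 CPM in activated DNT 2 and Actn2 at 61.8 CPM in CD8.

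Among the sarcomere genes, Myl1, the essential light chain of fast skeletal muscle myosin, stood at 23.5 and 14.9 CPM in naive DNT 1 and 2. It stood at 0.262 and 0.515 CPM in activated DNT 1 and 2, at 1.62 CPM in CD8 and at 0.438 CPM in TCRab. CD4 cells had 0 UMIs of Myl1, which allows up to 0.138 CPM at 3 UMIs. The groups did not overlap, and the 39 UMIs in CD8 came from 4 cells, with up to 16 in 1 cell. In naive DNT 1 the level was 14.5 times that in CD8 (95% interval for counting error 10.4 to 20.7) and in naive DNT 2 it was 9.18 times (6.65 to 13.0). Against the CD4 library, taken at 3 UMIs, the naive libraries were 170.0-fold and 107.7-fold higher. The lower limits of the 95% intervals for counting error, with the CD4 count at 0, were 137.6 and 87.4.

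Tnni1, the slow skeletal form of the inhibitory troponin subunit, stood at 7.53 and 9.88 CPM in naive DNT 1 and 2 and at 20.1 and 4.08 CPM in activated DNT 1 and 2. The activated libraries lay on either side of the naive ones. CD4, CD8 and TCRab held 15, 3 and 7 UMIs, or 0.692, 0.125 and 0.383 CPM, all far under the naive libraries. In activated DNT 1 13.4% of cells carried a Tnni1 UMI, in activated DNT 2 3.10%, and after thinning 2.07% and 0.204%, against 0.849% and 0.782% of naive cells.

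Actn2, the Z-disc alpha-actinin, had levels of 21.2 and 35.8 CPM in naive DNT, 1.95 and 3.73 CPM in activated DNT, 15.1 CPM in CD4, 61.8 CPM in CD8 and 34.9 CPM in TCRab. The order ran from CD8 down through naive DNT 2 and TCRab, whose levels differed by 1.02-fold (0.94 to 1.12), to naive DNT 1, CD4 and the activated libraries. A UMI was found in 24.9% of CD8 cells, in 4.82% and 12.7% of naive DNT 1 and 2, and in 5.64% of CD4 cells. Thinned to equal depth the shares were 9.11% in CD8, 4.77% in TCRab, 2.25% and 4.33% in naive DNT and 2.16% in CD4.

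Of the neuronal genes, Nrgn, the calmodulin-binding neurogranin, stood at 9.74 and 17.8 CPM in naive DNT and at 55.2 and 97.8 CPM in activated DNT. CD4, CD8 and TCRab had 1.11, 0.666 and 2.41 CPM. Every activated library was thus above every naive one, and every naive one above the 3 single libraries. The share of cells with a UMI after thinning was 6.14% and 5.83% in activated DNT, 0.974% and 1.75% in naive DNT, and between 0.108% and 0.164% in CD4, CD8 and TCRab.

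Kcnc1, the Kv3.1 potassium channel, was at 20.7 and 24.2 CPM in naive DNT, the closest agreement between the naive libraries in relative terms after Trpm1. It was at 0.437 and 3.05 CPM in activated DNT, 0.415 CPM in CD4, 5.83 CPM in CD8 and 2.74 CPM in TCRab. The naive libraries were 3.55-fold and 4.15-fold above CD8 (intervals 2.91 to 4.35 and 3.48 to 4.98) and 6.78-fold to 55.4-fold above the activated libraries.

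Tubb2b, the beta tubulin of developing neurons, was at 23.4 and 10.9 CPM in naive DNT, 4.66 and 3.93 CPM in activated DNT, 7.66 CPM in CD4, 2.71 CPM in CD8 and 5.58 CPM in TCRab. Naive DNT 2 was 1.42-fold above CD4 (1.19 to 1.70) and naive DNT 1 was 3.06-fold above it (2.55 to 3.68), so the naive libraries differed from each other by more than naive DNT 2 did from CD4.

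Trpm1, the cation channel of ON bipolar cells and melanocytes, was low everywhere, at 6.43 and 7.01 CPM in naive DNT, 2.97 and 2.93 CPM in activated DNT, 6.08 CPM in CD8, 2.63 CPM in TCRab and 1.43 CPM in CD4. The ratio of naive DNT 1 to CD8 was 1.06 (0.82 to 1.36) and that of naive DNT 2 was 1.15 (0.95 to 1.41), so no difference from CD8 was detectable at this depth.

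Krt18, the type I keratin of simple epithelia, was at 31.5 and 11.7 CPM in naive DNT and at 2.15 and 1.23 CPM in activated DNT. Only 6 UMIs were found in CD4, 1 in CD8 and 6 in TCRab. Few cells carried much of this RNA: the 10 cells with the most Krt18 held 36.8% of its UMIs in naive DNT 1 and 47.7% in naive DNT 2, with up to 42 and 70 UMIs in 1 cell. Naive cells with any Krt18 UMI numbered 147 of 4049 and 106 of 6728.

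Cells with a UMI of any of the 8 genes made up 13.5% and 12.7% of naive DNT, 9.94% and 8.28% of activated DNT, 3.50% of CD4, 11.0% of CD8 and 6.60% of TCRab after thinning. Cells with 2 or more of the 8 genes made up 2.05% and 1.84% of naive DNT. The corresponding shares were 0.279% and 0.475% in activated DNT, 0.060% in CD4, 0.215% in CD8 and 0.141% in TCRab. Naive DNT and CD8 were thus close in the share with any of the genes, most CD8 cells of that kind carrying Actn2, and apart in the share with several.

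Within naive DNT the 8 genes fell into 3 groups of cells. Clusters of naive cells were built without the 8 genes among the variable genes, which still uses every cell in which they were read, so the levels per cluster are a description. Myl1, Tnni1, Nrgn and Trpm1 were concentrated in cluster 2, which besides them was led by Klrb1a, a receptor of the NKR-P1 family, Tsc22d1, Cd7, Klhdc2, Fcer1g, the Fc receptor gamma chain, and Cd160. Actn2 was concentrated in cluster 4, which was type 17-like, with Tmem176a, Tmem176b, Pxdc1 and Ramp1 among its leading genes. Kcnc1, Krt18 and Tubb2b were concentrated in cluster 5, which was led by Slamf7, Eomes, a T-box transcription factor, Tspan3, Ptprk, Rgs16 and Epcam. All 8 genes had their largest share of UMIs in the same cluster in both libraries; at a finer clustering (resolution 1.0) 4 did, Myl1, Nrgn, Tnni1 and Actn2.

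Cluster 2 held 423 cells (10.4%) of naive DNT 1 and 881 cells (13.1%) of naive DNT 2. It stayed unnamed, since 2 lists tied: 6 markers of the Fc receptor gamma and Cd7 list and 6 of the NKG2 and Ly49 receptor list were higher. It took 79.8% and 87.5% of the Myl1 UMIs, 89.2% and 89.9% of Tnni1, 70.8% and 72.1% of Nrgn and 64.9% and 74.6% of Trpm1. Myl1 was at 198 and 99.1 CPM inside the cluster and at 5.25 and 2.14 CPM outside it. A small cluster, number 18, was higher still in naive DNT 2, with Myl1 at 441 CPM in 4 of 11 cells and Trpm1 at 76.0 CPM in 2 of them, while neither had a UMI in its 9 cells of naive DNT 1. Nrgn, at 72.6 and 97.5 CPM in cluster 2, was also higher in some small clusters. In naive DNT 1 it was at 134 CPM in cluster 15 (2 of 7 cells) and 119 CPM in cluster 18 (2 of 9 cells). In naive DNT 2 it was at 114 CPM in the erythroid-like cluster 17 (1 of 8 cells). Even in cluster 2 only 21.5% and 22.4% of cells had a Myl1 UMI, and 12.8% to 28.7% had one of the other 3 genes.

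Cluster 4 held 177 cells (4.37%) of naive DNT 1 and 869 (12.9%) of naive DNT 2, so the naive libraries differed in the share of these cells as well as in the level of Actn2. Within it 70.1% and 72.0% of cells had an Actn2 UMI, against 1.83% and 3.87% of the other cells. Its level was 308 and 207 CPM inside and 4.90 and 6.22 CPM outside.

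Cluster 5 held 555 cells (13.7%) and 406 cells (6.03%). It took 95.4% and 67.8% of the Krt18 UMIs, 90.1% and 82.8% of Tubb2b, and 80.7% and 48.9% of Kcnc1. Kcnc1 was shared with another large cluster: 33.1% of its UMIs in naive DNT 2, and 7.28% in naive DNT 1, were in the type 17-like cluster 4, where 31.2% and 13.0% of cells had one. In naive DNT 2 a further 30.4% of the Krt18 UMIs came from 6 of the 22 cells of cluster 15, whose leading genes Ube2c, Mki67, Birc5 and Top2a belong to dividing cells. In naive DNT 1 the 7 cells of that cluster had none.

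**Figure D2:**
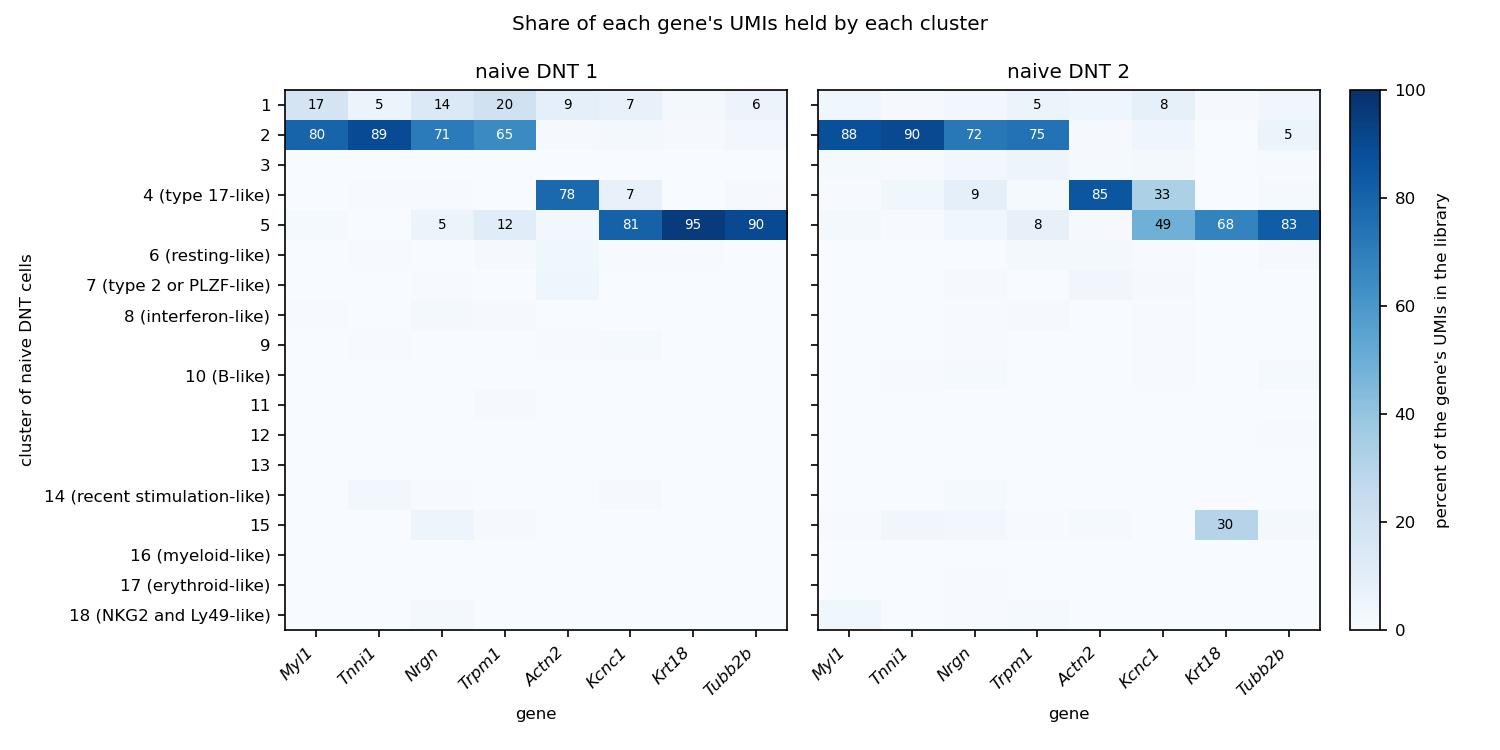
Each square gives the percent of a gene's UMIs (x axis, 8 genes) that a cluster of naive DNT cells holds (y axis, 18 clusters), for naive DNT 1 on the left and naive DNT 2 on the right; values of at least 5% are printed. Myl1, Tnni1, Nrgn and Trpm1 share cluster 2, Actn2 lies in cluster 4, and Kcnc1, Krt18 and Tubb2b lie in cluster 5.

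Pairs of the 8 genes were read together in the same cells along the same lines. Of the 28 pairs, 11 were found together in more cells than the product of their shares in both naive libraries, after thinning to 1500 UMIs. These were all 6 pairs among Myl1, Tnni1, Nrgn and Trpm1, all 3 pairs among Kcnc1, Krt18 and Tubb2b, and the pairs of Actn2 with Kcnc1 and of Trpm1 with Tubb2b. The last 2 pairs were near the product in 1 library each. Actn2 met Kcnc1 in 4 and 28 cells of naive DNT 1 and 2, against 2.99 and 9.44. Trpm1 met Tubb2b in 3 and 1 cells, against 1.03 and 0.835. Nrgn and Trpm1 met in 5 cells of naive DNT 1 and 12 of naive DNT 2, against 0.350 and 1.27 from the product of shares. Krt18 and Kcnc1 met in 16 and 11 cells, against 2.69 and 1.54. Krt18 met none of Myl1, Tnni1 and Nrgn in a single thinned cell of either library, but the product gave at most 1.98 cells for any of these pairs, so few such cells were to be found at this depth. Without thinning, Krt18 met Myl1 in 2 and 0 cells, Tnni1 in 0 and 1 and Nrgn in 3 and 2, each fewer than the product, which ran from 2.51 to 5.89. Actn2 and Myl1 met in 1 and 0 cells against 2.20 and 4.63. The 28 pairs share cells and depth and are not independent.

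**Figure D3:**
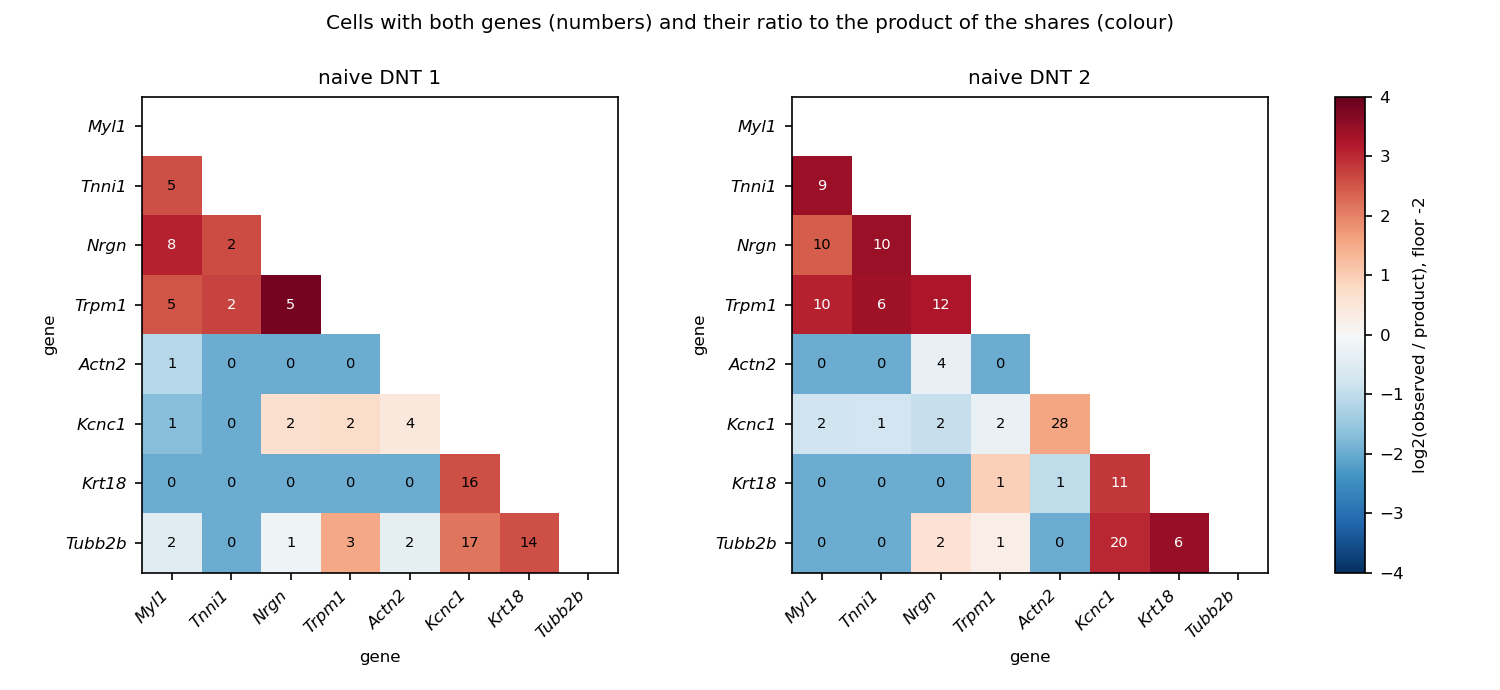
Rows and columns are the 8 genes, numbers are cells with a UMI of both after thinning to 1500 UMIs, and colour is the log2 ratio of that number to the product of the shares, for naive DNT 1 (left) and naive DNT 2 (right). The red blocks are Myl1, Tnni1, Nrgn and Trpm1 together and Kcnc1, Krt18 and Tubb2b together, with 5 and 12 cells for Nrgn and Trpm1.

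The genes most like each member were found by comparing naive cells that had its UMI with those that had none, and ranking by the lower of the 2 libraries' folds with 20 CPM added. The same cells made the clusters, so this restates the grouping gene by gene, as a description. For Myl1 the 5 leading genes were Klrb1a, Nrgn, Tsc22d1, Trpm1 and Klhdc2, with Klrb1a 4.74-fold and 4.82-fold higher. Tnni1 was followed by Nrgn (6.61 and 8.21-fold), Klrb1a, Klra1, Tsc22d1 and Myl1. Nrgn was followed by Tnni1 (5.35 and 5.62-fold), Klrb1a, Tsc22d1, Sox4 and Trpm1, and Trpm1 by Nrgn (8.48 and 5.37-fold), Myl1, Sox4, Tnni1 and Klrb1a. Each of these 4 had 2 or more of the other 3 among its first 5 genes out of 3934 to 4103 genes that reached 20 CPM in such cells.

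Actn2 was followed by S100a4 (12.6 and 10.4-fold), Tmem176a, Pxdc1, Tmem176b and Capg. In cells with Actn2, 12 of the 20 genes of the type 17 list were at least 2-fold higher in both libraries, beside 86 of all 4068 genes at 20 CPM or more (2.11%), among them Ccr6, a chemokine receptor of type 17 cells, Blk, Maf and Ramp1. The summed level of the list was 16.1 and 11.9 times that of cells without Actn2.

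Kcnc1 was followed by Eomes (4.35 and 4.06-fold), Slamf7, Rgcc, Rgs16 and Tubb2b. Krt18 was followed by Oxsr1 (6.08 and 7.69-fold), Tspan3, Slamf7, Pou2af1 and Rgs16, and Tubb2b by Krt18 (9.18 and 8.64-fold), Rgs16, Slamf7, Pou2af1 and Sox4. Epcam, an adhesion protein of epithelia, was at 128 and 70.1 CPM in cells with Kcnc1 against 18.6 and 13.9 CPM in those without, at 147 and 243 CPM in cells with Krt18, and at 144 and 169 CPM in cells with Tubb2b. The summed level of the dividing cell genes was 12.3 times higher in cells with Krt18 in naive DNT 2, where cluster 15 took part, and 0.966 times that of the rest in naive DNT 1. Krt8, the usual partner of Krt18, had only 11 and 2 UMIs in naive DNT, and all of them were in cluster 5.

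**Figure D4:**
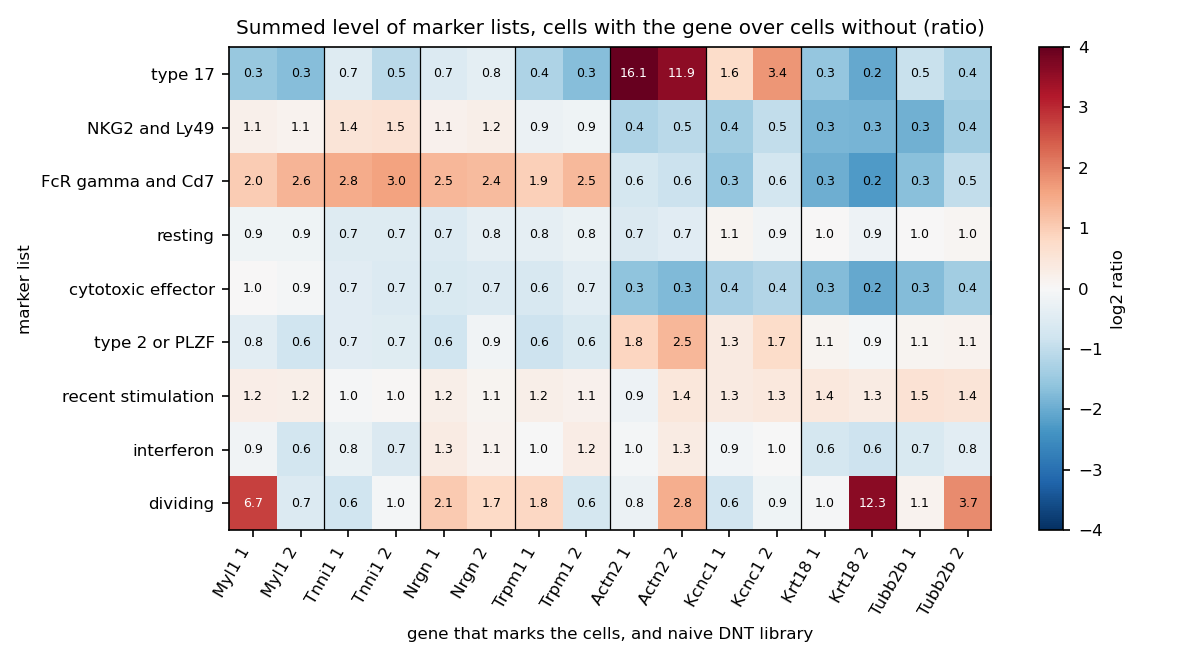
For each gene and naive DNT library (x axis) and each marker list (y axis), the number and colour give the summed level of the list in cells with the gene over that in cells without it. Type 17 genes are 16.1 and 11.9 times higher with Actn2, and the Fc receptor gamma and Cd7 list is 1.93 to 3.05 times higher with Myl1, Tnni1, Nrgn and Trpm1.

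Defining markers of the tissues for which these genes are known were in part at 0. Of 14 genes of skeletal or cardiac muscle, 7 had no UMI in each naive library, Myh1, Myh4, Myh6, Myh7, Actc1 and Des among them, and the list summed to 11.6 and 8.53 CPM against 11.4 to 15.5 CPM in the other libraries. Of 8 neuron genes, 5 and 4 were at 0, Rbfox3, Snap25 and Syt1 in both libraries, and the sums were 1.56 and 4.05 CPM, of which Stmn2 was 0.985 and 3.28 CPM, against 1.54 and 1.90 CPM in activated DNT, 0.138 in CD4, 0.042 in CD8 and 1.04 in TCRab. Of 7 epithelial genes 2 were at 0, Krt19 and Cldn7, and nearly all of the 27.4 and 21.7 CPM was Epcam, at 26.1 and 20.7 CPM. The epithelial sum was 24.7 and 78.7 CPM in activated DNT and 3.83, 2.87 and 4.93 CPM in CD4, CD8 and TCRab, under both naive libraries. A Cd3 UMI was present in 97.3% to 100% of naive cells with a UMI of any 1 of the 8 genes, against 97.8% to 99.2% of cells without. In the B-like, myeloid-like and erythroid-like clusters, none of 25 cells of naive DNT 1 and 1 to 10 of 133 cells of naive DNT 2 had a UMI of a given gene, at median depths of 5213 and 4990 UMIs. The highest of these was Tubb2b, at 7.52% of those cells, above its 3.92% in all cells of naive DNT 2 (median 7511 UMIs) and below its 44.1% in cluster 5. Cluster 12 stayed unnamed and was not counted here, though the myeloid list fitted it best, with Lyz2, Apoe and Tyrobp among its leading genes. Of its 47 cells in naive DNT 1, 1 had an Actn2 UMI and 1 a Tubb2b UMI. Of its 28 cells in naive DNT 2, 1 had a Kcnc1 UMI and 1 a Tubb2b UMI. Free RNA and doublets were not removed, and their part in the low shares outside the 3 clusters was not tested.

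The 10 genes most like each member in naive cells were looked up in cells of the other libraries with its UMI, where at least 30 such cells were found; this look was taken after the naive values were seen and has no test. For Nrgn 0 of the 10 were at least 2-fold higher in Nrgn-carrying cells of both activated libraries (582 and 361 cells). Only 1 of all 4111 genes there (0.0243%) was, so the count cannot tell whether its company changed. The median fold there was 0.960 over the 10 and 1.01 over all genes. The genes that led there were 2810417H13Rik and Rrm2, which belong to DNA replication, with Exoc2 and the transcription factor gene Batf3, at 1.87-fold to 5.14-fold. Activated cells with Nrgn were also deeper, with medians of 22000 and 30130 UMIs against 15724 and 9347 in all activated cells, counted like all medians beside a share over the 27514 shared genes, and the part of depth in this was not tested. Tnni1 in activated cells, again with 0 of 10 beside 2 of 4119 genes (0.0486%), was led by Lad1, Batf3, Map4k1, Exoc2 and Nrgn, the last being also its first gene in naive cells (1.76 and 2.07-fold here), and its cells too were deep, with medians of 22760 and 50155 UMIs.

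For Actn2, 5 of the 10 were at least 2-fold higher in activated cells that carried it, S100a4, Tmem176a, Tmem176b, Cxcr6 and Ckb, beside 12 of 4012 genes (0.299%). So were the type 17 cytokine gene Il17a (3.88 and 2.73-fold) and Il13 (3.86 and 10.8-fold). In CD8 and CD4 cells 0 of 10 were, beside 1 of 3473 and 0 of 3631 genes, and the gene that led in CD4 cells with Actn2 was S100a4 (1.93-fold), its first gene in naive cells too. The largest fold in 1159 CD8 cells with Actn2 was 2.05, for Ccl4. In TCRab, cells with Actn2 were led by Cd8a and Cd8b1 (2.16 and 2.06-fold), with 0 of 10 beside 2 of 3682 genes.

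Tubb2b kept 6 of 10 in TCRab, 5 of 10 in CD8 and 3 of 10 in CD4, with Slamf7, Pou2af1 and Sox4 in all 3, beside 1.78%, 2.21% and 0.535% of all genes at 20 CPM or more that were 2-fold higher. In activated DNT it was 0 of 10, beside 0.0498% of genes. Epcam was among those in CD8 and TCRab. The cells were few, 71, 40 and 109. Of the 7 dividing cell genes found under their listed symbols, 5 were also at least 2-fold higher in those of CD8 and TCRab. Kcnc1 kept 4 of 10 in TCRab (41 cells), beside 0.670% of genes, and 2 of 10 in CD8 (127 cells), beside 0.167%, where Sox4, Ctla2a and Tubb2b led. Trpm1 kept 0 of 10 in activated DNT (83 and 44 cells), beside 0 of 3844 genes. It kept 1 of 10, Tnfrsf9, in CD8 (134 cells), beside 0.677% of genes, and the same 1 in TCRab (44 cells), beside 0.464%. In CD8 2810417H13Rik, Stmn1 and Xcl1 led.

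After 3 days of stimulation both activated libraries lay under both naive ones for Myl1, Trpm1, Actn2, Kcnc1, Krt18 and Tubb2b. They lay above both for Nrgn and on either side for Tnni1. The share of all genes with such an order was not counted, so nothing is read from these orders. In edgeR's quasi-likelihood test on UMIs summed per library, with 2 libraries a group, 12325 genes were tested and 1280 of them (10.4%) had an adjusted p under 0.05, 656 higher (5.32%) and 624 lower (5.06%) in activated DNT. Since the genes were chosen with this contrast among others, the members' values describe them and nothing is read from their count. All 8 were tested, and 5 lay past the threshold, Myl1, Actn2, Kcnc1 and Krt18 lower and Nrgn higher. The log2 fold changes, activated minus naive, were -5.90 for Myl1 (SE 0.63), -3.99 for Kcnc1 (SE 0.76), -3.87 for Krt18 (SE 0.83), -3.47 for Actn2 (SE 0.41) and 2.34 for Nrgn (SE 0.39). Tubb2b at -2.22 (SE 0.62), Trpm1 at -1.31 (SE 0.45) and Tnni1 at 0.52 (SE 0.85) did not reach it. The median was -2.84 over the 8 genes and -0.05 over all genes tested. With the replicate number, which is also the kit, as a block, 4894 genes and 7 of the 8 passed, Trpm1 and Tubb2b being added. Without naive DNT 1, 547 genes and 2 of the 8 did, Myl1 and Actn2.

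**Figure D5:**
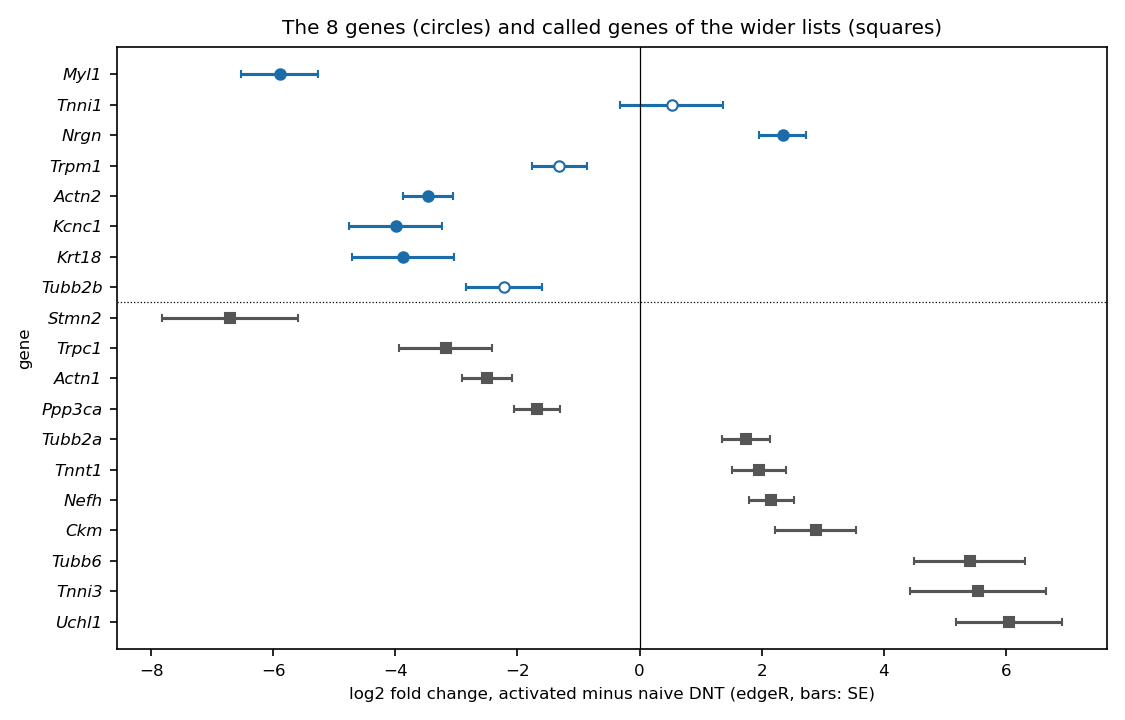
The x axis is the log2 fold change, activated minus naive DNT, with its SE as bars; circles are the 8 genes (open where the adjusted p was 0.05 or more) and squares are genes of the wider lists that passed it, except Myod1, whose activated libraries had 0 UMIs. Nrgn lies at 2.34 and the other 4 filled circles between -5.90 and -3.47.

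Wider lists of genes of the same pathways, 161 genes in 10 lists, show how far the members stand for them. Of these 80 were tested and 12 passed (15%, beside 10.4% of all genes), 7 higher and 5 lower in activated DNT, with a median log2 fold change of 0.04. With the block 45 passed, leaving out naive DNT 1 gave 4, and leaving out naive DNT 2 gave 5.

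Of 30 sarcomere genes 7 were tested, and 3 rose in activated DNT while 0 fell, with a median of 1.96. They were Tnni3, the cardiac troponin I (0 and 2 UMIs in naive DNT, 60 and 21 in activated DNT, edgeR adjusted p = 0.027), Ckm, the muscle creatine kinase (10 and 32, 197 and 82 UMIs, adjusted p = 0.038), and Tnnt1, the slow skeletal troponin T (32 and 136, 317 and 227 UMIs, adjusted p = 0.036). All 3 went the other way from Myl1. Naive cells held 80.0% and 93.8% of their few Ckm UMIs in cluster 2, where Myl1 and Tnni1 were. Tnnc1, which encodes the calcium-binding troponin subunit of slow and cardiac muscle, and Tnni2 were too low to be tested, with 4 and 4 and with 6 and 9 UMIs in naive DNT. Myl4, an atrial light chain, did not pass (46 and 93, 36 and 11 UMIs, edgeR adjusted p = 0.22).

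Among 12 myogenic factors 4 were tested, and Myod1, the master regulator of muscle determination, fell from 80 and 58 UMIs in naive DNT to 0 in both activated libraries (edgeR adjusted p = 0.035). Taken at 3 UMIs over both activated libraries together, that is 21.6-fold for the lower of the naive libraries, naive DNT 2. Myog, Myf5 and Myf6 were at 0 in naive DNT. Cluster 5 held 93.8% and 87.9% of the Myod1 UMIs, the cluster of Kcnc1, Krt18 and Tubb2b. Myod1 lies next to Kcnc1, at chr7:46376474-46379099, with 17397 bases between them. In cells with Kcnc1 it was at 22.9 and 6.81 CPM, against 3.30 and 0.299 CPM in the other naive cells. Without naive DNT 1 its edgeR adjusted p was 0.063.

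Of 16 nonmuscle actomyosin genes 15 were tested, and Actn1, a nonmuscle alpha-actinin, fell from 74.8 and 106 CPM in naive DNT to 11.7 and 24.7 CPM in activated DNT (edgeR adjusted p = 0.015). Actn4 (log2 fold change 0.76, edgeR adjusted p = 0.25) and the nonmuscle light chain gene Myl6 (-0.17, adjusted p = 0.88) did not pass. Of 17 genes of calmodulin and its partners, 14 were tested and 1 passed, Ppp3ca, a catalytic subunit of calcineurin, which fell by 1.69 (SE 0.38, edgeR adjusted p = 0.036).

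Of 16 neuron markers 6 were tested, with a median of 2.07. Uchl1, a deubiquitinase abundant in neurons, rose by 6.05 (SE 0.87, edgeR adjusted p = 0.011), from 0 and 13 UMIs to 216 and 396. Nefh, the heavy neurofilament, rose by 2.16 (SE 0.37, adjusted p = 0.017 in edgeR). Stmn2, a stathmin of growing axons, fell from 17 and 175 UMIs to 0 and 1 (edgeR adjusted p = 0.016), and 94.1% and 94.3% of its naive UMIs were in cluster 4, the cluster of Actn2. Cells with Actn2 had Stmn2 at 8.20 and 19.7 CPM, the others at 0.553 and 0.547 CPM.

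Of 18 potassium channel genes 10 were tested, at a median of 0.81, and 0 passed in edgeR. With an unadjusted p under 0.05 there were 4, DESeq2 called 1, and the fit with the block called 6. Kcna3 (0.24, edgeR adjusted p = 0.87) and Kcnn4 (0.63, adjusted p = 0.40), the main potassium channels of T cells, were among those that did not pass. Of 14 TRP channel genes 5 were tested and Trpc1 fell by 3.18 (SE 0.77, edgeR adjusted p = 0.043), from 21 and 73 UMIs to 6 and 3. Trpm4 (1.77, edgeR adjusted p = 0.075) and Trpm7 (-0.16, adjusted p = 0.88) did not pass. Of 10 melanocyte and bipolar cell genes 1 was tested, and of 14 keratins and epithelial genes 5 were, at a median of -0.36. In both lists 0 passed in edgeR, 0 had an unadjusted p under 0.05, and 0 were called by DESeq2 or with the block.

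Of 15 tubulin genes 14 were tested, and 2 rose, at a list median of 1.26. Tubb6 rose by 5.41 (SE 0.91, edgeR adjusted p = 0.022), from 29 and 31 UMIs to 2269 and 914. Tubb2a, the close paralog of Tubb2b, rose by 1.74 (SE 0.39, edgeR adjusted p = 0.036), from 215 and 920 UMIs to 1290 and 1883, whereas Tubb2b stood at -2.22 and did not pass. In naive DNT Tubb2a was highest in cluster 5 too, at 58.2 and 79.9 CPM against 5.66 and 13.3 CPM in the other cells. Tubb5, the main beta tubulin of lymphocytes, did not pass (0.36, edgeR adjusted p = 0.70). Tubb6 and Uchl1 passed in each of the 9 alternatives, and the other 10 genes of the wider lists in 4 to 8 of the 8 or 9 that gave them a p, leaving out naive DNT 1 or naive DNT 2 ending 8 calls each.

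Against CD4, CD8 and TCRab, with 1 library each, no test was run, and a rule of size was used: a level 2-fold or more away from both naive libraries, the same way, and 20 CPM or more in each library on the side with more RNA. By that rule Kcnc1 alone of the 8 was higher in naive DNT, against each of the 3 groups, with 20.7 CPM in naive DNT 1, just above the minimum, and the call was lost against all 3 when CPM were scaled by TMM, with Actn2 then past the rule as lower than in CD8. It called 5.51%, 4.87% and 4.16% of the genes that could pass it higher in naive DNT than in CD4, CD8 and TCRab. Of the 8 only 2 could pass it, Actn2 and Kcnc1. For 3 genes 1 naive library was under 20 CPM: Myl1 was at 23.5 and 14.9 CPM, Krt18 at 31.5 and 11.7 CPM and Tubb2b at 23.4 and 10.9 CPM. Tubb2b in naive DNT 2 was also under 2-fold above CD4 (1.42) and TCRab (1.95). Tnni1, Nrgn and Trpm1 were under 20 CPM in both naive libraries. Actn2 was above 20 CPM in both, but by unscaled CPM it was not 2-fold away in both from any of the 3 groups. With a minimum of 5 CPM the count was 6 of 8 for each group, beside 6.77%, 6.00% and 5.25% of genes. Myl1, Tnni1, Nrgn, Kcnc1 and Krt18 passed against all 3, Trpm1 against CD4 and TCRab, and Tubb2b against CD8. With either minimum 0 of the 8 were lower in naive DNT. These values belong to the contrast by which the genes were chosen.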

How the data were processed

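Droplet single-cell RNA-seq (10x Chromium 3′) was read in 7 libraries. The deposited matrices are UMI counts, not normalized, for each gene in each barcode, made by the authors with Cell Ranger 2.1.0 and 3.0.1 on mm10 (GRCm38), per the submitters' processing notes. Barcodes under 200 genes or over 10% mitochondrial UMIs were dropped, and the 27514 genes shared by both references were used. Where a symbol had several gene IDs the first was taken. No doublet caller was run and free RNA was not removed.

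Counts summed per library were tested with edgeR 4.0.16 (quasi-likelihood, TMM, filterByExpr, Benjamini-Hochberg threshold 0.05; R 4.3.3, limma 3.58.1), with DESeq2 1.42.0 as an alternative. The SE is the log2 fold change over the square root of the F statistic. The procedure was first tested on simulated data. Naive cells were clustered with igraph's Leiden method on a graph of shared neighbours (2000 variable genes without the 8, 30 components, resolution 0.6). A cluster was named from at least 3 fixed markers. Shares used cells thinned to 1500 UMIs. Other tools were numpy 2.4.6, pandas 2.3.3, scipy 1.17.1 and matplotlib 3.10.9.

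The members and lists were chosen with earlier results of these data known. All 8 members, a fixed set of partner genes (1 of them is not reported here), up to 3 passing genes per list and direction with the largest fold, and the 5 genes most like each member were named; other genes were named after their values were seen. The replicate number coincides with the kit per the labels, so it pairs naive and activated libraries: their deviations from the group means correlated at 0.648. The block left 1 residual degree of freedom (biological coefficient of variation 0.227, against 0.429 with 2). Since the labels do not say whether libraries came from separate animals, p-values measure the spread between these libraries. Intervals (95%, exact) and the limit of 3 UMIs cover counting error only.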

Additional observations from a re-analysis of the deposited data

How the results depend on the processing

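The number of genes that passed between activated and naive DNT was 1280, and it was 2348 with DESeq2, 2188 with no filter, 351 with cells thinned to 1500 UMIs and 4894 with the replicate block; leaving out single libraries gave 547 to 2074. Over the wider lists the count was 12, against 21 with DESeq2, 22 with no filter, 3 after thinning and 45 with the replicate block, and 4 to 16 without single libraries. Of the 8 members 5 passed, 7 with the replicate block, and 2 to 6 without single libraries, 2 being without naive DNT 1. The causes were not tested. Of 72 alternative values of the members' log2 fold changes, 65 stayed within their spread and 7 moved. Tnni1 went from 0.52 to -1.43 without activated DNT 1. The count of members past the size rule against CD4, in either direction, went from 1 to 6 at 5 CPM, to 0 with TMM-scaled CPM, and ranged from 2 to 4 without a naive library. Against CD8 it was 2 at 1.5-fold (Actn2, as lower in naive DNT, beside Kcnc1), 0 at 4-fold, 6 at 5 CPM and 1 to 5 without a naive library, and with TMM-scaled CPM the 1 was Actn2 in place of Kcnc1. Against TCRab it was 6 at 5 CPM, 0 with TMM-scaled CPM and 1 to 4 without a naive library. Unthinned, 2 members in place of 5 had their highest shares in both naive libraries, Myl1 and Kcnc1. At resolution 1.0, 4 members in place of 8 kept the same leading cluster in both libraries. Pairs above the product of shares numbered 9 to 13 in place of 11 over the alternatives. The genes most like a member shared 2 to 5 of 5 with the alternatives, with a median of 4. At this depth no difference of Trpm1 from CD8 was detectable.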
